A study of Mus musculus with 12 samples.

Results

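The cell fusion genes of osteoclasts followed here are Dcstamp, Ocstamp, Cd47, Sirpa, Cd44, Adam8, Cd200 and Siglec15, 8 of the 47643 genes in the count table. They were picked by name, as fusion proteins and surface partners of multinucleation, and not by a threshold on their values, although results of these libraries were already known when the set was drawn up. Bulk RNA-seq was available for 12 libraries of osteoclasts grown for 3 days with M-CSF and RANKL, starting from monocytes of the bone marrow (BMMs) of mice of strain BALB/c and genotype WT. There were 4 biological replicates of unstimulated osteoclasts (OCsCtr), 4 of osteoclasts stimulated with sorted eosinophils at 2 eosinophils per BMM (OCsEo) and 4 of osteoclasts stimulated with eosinophil supernatant diluted 1:2 (OCsEoS). Stimuli were added at day 0 for 48 h. The cells were then washed and the medium was changed, and RNA was taken at day 3, 1 day after the wash. The eosinophils came from IL-5tg/4get mice, which carry an IL-5 transgene, whereas every BMM culture was WT. The cultures are in vitro and without bone, and the sources used here do not state which animals gave which replicate.

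Osteoclasts become multinucleated by fusion of mononuclear precursors. DC-STAMP and OC-STAMP, encoded by Dcstamp and Ocstamp, are multipass membrane proteins induced by RANKL, and precursors lacking either stay mononuclear. Around them works a set of surface proteins known from macrophage fusion: CD47 and its receptor SIRPα, CD44, which binds hyaluronan and osteopontin, the metalloprotease ADAM8, CD200 with its receptor CD200R, and Siglec-15, a sialic acid-binding receptor that signals through the adaptor DAP12.

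Library totals were 28014177 to 34266435 counts in OCsCtr, 29508222 to 40327869 in OCsEo and 27837530 to 34540511 in OCsEoS. All 8 fusion genes were among the 13681 genes kept by the filter on low counts, and the smallest count of any of them in any library was 759, for Siglec15 in OCsEoS 4. All 12 osteoclast markers checked, such as Ctsk, Acp5 and Calcr, were detected in every library. Their summed level was 27592 to 33755 CPM (counts scaled to library size by TMM) in OCsCtr, 17501 to 22599 in OCsEo and 14340 to 21363 in OCsEoS. In each stimulated group 8 of the 12 were called lower, against 2.61% of all genes in OCsEo and 4.11% in OCsEoS. The 10 macrophage and monocyte markers summed to 5321 to 5872 CPM in OCsCtr, 5829 to 7314 in OCsEo and 5565 to 6546 in OCsEoS. Most of this sum was Lyz2, at 4106 to 5774 CPM in every library. In OCsEo 1 of the 10 was called higher and in OCsEoS 3, against 3.27% and 3.63% of all genes. None was called lower, and 8 of the 10 had a log2 fold change above 0 in each stimulated group. In bulk cultures, fewer osteoclasts and less RNA of a gene per osteoclast cannot be told apart, and this holds for every level given below.

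The fusion genes were strongly expressed in unstimulated osteoclasts. Divided by the gene length of the table, Dcstamp had the highest level in OCsCtr, 621 ± 97.2 CPM per kb (SD, n = 4), rank 126 of the 13681 genes tested. Ocstamp followed at 143 ± 11.3 CPM per kb and Sirpa at 112 ± 9.75, then Cd44 at 70.5 ± 3.51. The next 4 lay closer together, with 51.7 ± 5.95 CPM per kb for Cd200, 48.3 ± 4.87 for Siglec15, 42.4 ± 5.63 for Adam8 and 35.7 ± 1.01 for Cd47 (rank 1812). Of these neighbours, Cd200 and Siglec15 did not differ beyond their spread, nor did Siglec15 and Adam8. The length of Dcstamp is 1993 bases in the table and 2664 in the GENCODE annotation, and with the latter its level was 465 CPM per kb, still first. In OCsEo and OCsEoS the lower end of the order was different, with Adam8 (64.1 and 63.2 CPM per kb) ahead of Cd47 (37.4 and 38.5), Cd200 (33.2 and 36.1) and Siglec15 (29.4 and 25.5). The order of Cd47 and Cd200 there depends on the length used, since Cd47 has 5277 bases in the table and 6276 in GENCODE, and with the latter its level was 31.4 and 32.4 CPM per kb, below Cd200.

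A gene was called when edgeR's quasi-likelihood test gave an adjusted p under 0.05 and the log2 fold change was over 0.5 in size. Against OCsCtr, Ocstamp, Cd200 and Siglec15 were called lower and Adam8 higher, both in OCsEo and in OCsEoS. The 3 lower calls in OCsEo compare with 2.61% of all genes tested called in that direction, and those in OCsEoS with 4.11%. The 1 higher call compares with 3.27% and 3.63%. An adjusted p under 0.05 at any fold was reached by 5 of the 8 fusion genes in OCsEo and 6 of 8 in OCsEoS, against 17.4% and 23.0% of all genes. The 4 stimulated and 4 control libraries did not overlap for 4 of 8 fusion genes in OCsEo and 5 of 8 in OCsEoS, against 21.5% and 25.7% of all genes. The median log2 fold change of the 8 genes was -0.17 in OCsEo and -0.34 in OCsEoS, beside -0.01 over all genes in each. Both comparisons use the same OCsCtr libraries, so that their values are set side by side and not counted as independent.

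**Figure D1:**
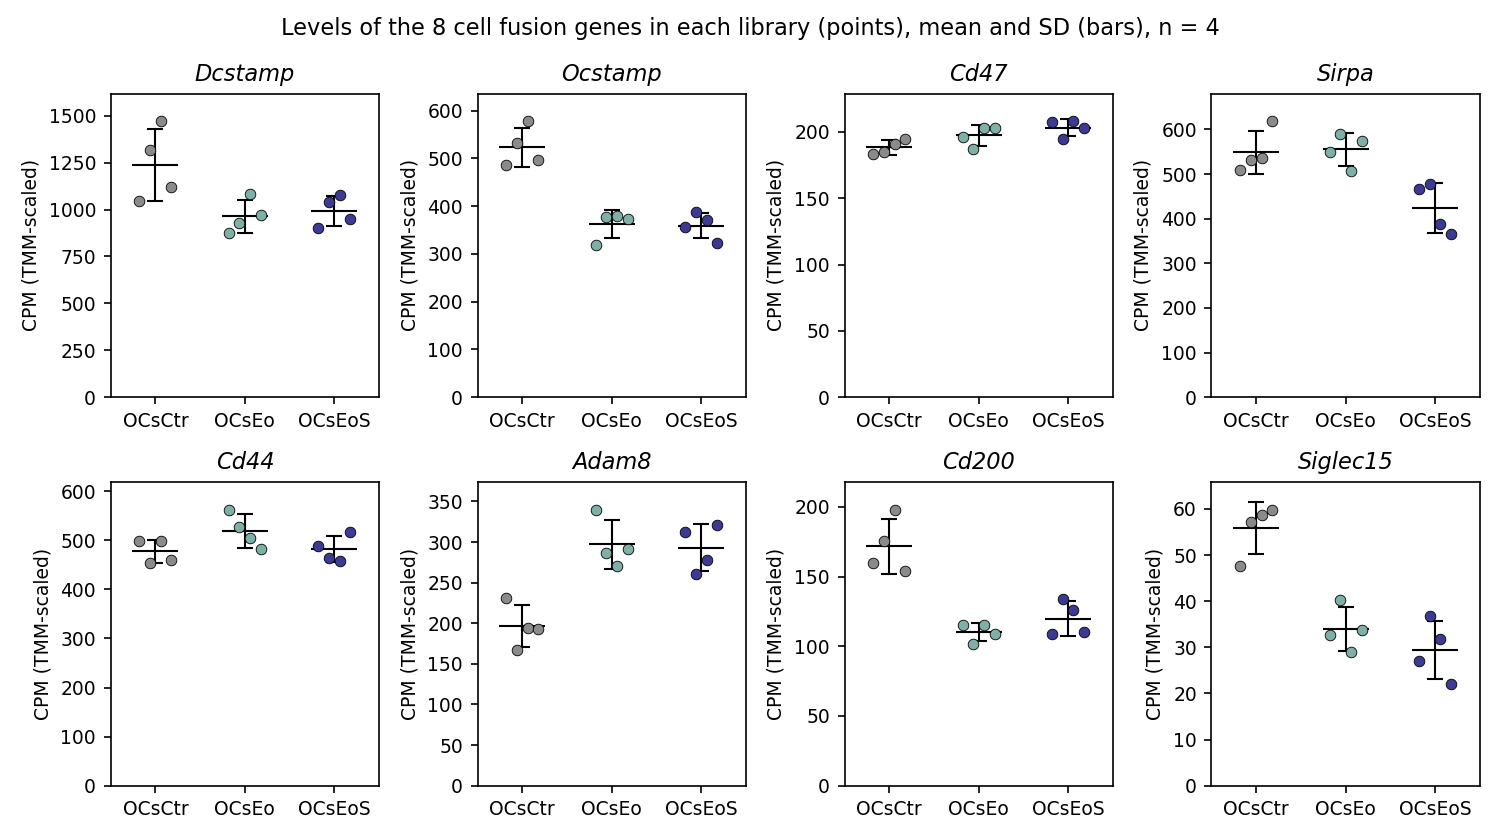
Level of each fusion gene in CPM (y axis, from 0, scaled by TMM) in the 4 libraries of OCsCtr, OCsEo and OCsEoS (x axis). Points are libraries, in the order of replicates 1 to 4 from left to right, and bars are the mean and SD. Ocstamp, Cd200 and Siglec15 lie below and Adam8 above all OCsCtr libraries in both stimulated groups, and Sirpa is lower in OCsEoS alone.

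The genes of the STAMP proteins were both lower in the stimulated groups, Ocstamp past the fold cut-off and Dcstamp not. Ocstamp (ENSMUSG00000027670, chr2:165393760-165400405, minus strand, GRCm38, 3 exons) was at 485, 531, 578 and 498 CPM in OCsCtr replicates 1 to 4, at 318, 378, 379 and 373 CPM in OCsEo and at 357, 387, 371 and 323 CPM in OCsEoS. All 8 stimulated libraries were below all 4 controls. The log2 fold change was -0.53 (SE 0.07, adjusted p = 4.61e-05) in OCsEo and -0.54 (SE 0.07, adjusted p = 2.86e-05) in OCsEoS by edgeR. These values are close to the cut-off of 0.5, and dropped inside it, at -0.48 and -0.49, when OCsCtr 3 was left out. They did so too without OCsEo 1 (-0.47 in OCsEo) and without OCsEoS 4 (-0.49 in OCsEoS), while the adjusted p stayed at 4.02e-04 or less in these 4 fits.

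Dcstamp (ENSMUSG00000022303, chr15:39745932-39760934, plus strand) was more variable among the controls, at 1045, 1318, 1471 and 1118 CPM. The OCsEo libraries had 876, 927, 1082 and 970 CPM and the OCsEoS libraries 903, 1042, 1079 and 948 CPM. The highest stimulated libraries reached above OCsCtr 1, so the groups overlapped. The log2 fold change was -0.36 (SE 0.09, adjusted p = 0.00778) in OCsEo and -0.32 (SE 0.09, adjusted p = 0.0137) in OCsEoS by edgeR, past the test but under the fold cut-off. In OCsEo the adjusted p stayed under 0.05 without each library in turn, with 0.0450 without OCsCtr 3 as the highest, and the change stayed between -0.44 and -0.26. In OCsEoS the change stayed between -0.40 and -0.22, but the adjusted p passed 0.05 without OCsCtr 2 (0.0525), OCsEoS 1 (0.0625) or OCsCtr 3 (0.0797), and was 0.0513 by DESeq2 on 2 groups. Between OCsEoS and OCsEo the difference was 0.04 (95% confidence interval -0.14 to 0.23) for Dcstamp and -0.01 (interval -0.16 to 0.14) for Ocstamp.

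Within a library, the log2 ratio of Ocstamp to Dcstamp counts averaged -1.23 ± 0.11 in OCsCtr, -1.41 ± 0.10 in OCsEo and -1.47 ± 0.10 in OCsEoS (SD, n = 4). The ranges overlapped, with the lowest control at -1.35 and the highest libraries of OCsEo and OCsEoS at -1.29 and -1.34. Over the 12 libraries the log2 levels of both genes had a Pearson r of 0.88, and 0.78 after group means were taken off, as a description of libraries that share culture conditions and scaling.

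The CD47 and SIRPα pair gave a different picture. CD47 is the widely expressed ligand, and SIRPα the myeloid receptor that recruits the phosphatases SHP-1 and SHP-2. Cd47 (ENSMUSG00000055447, chr16:49855618-49915010, plus strand) had the steadiest level of all 8 genes, with 188 ± 5.34 CPM in OCsCtr beside 197 ± 7.61 in OCsEo and 203 ± 6.33 in OCsEoS (SD, n = 4), and a coefficient of variation of at most 3.86% in any group. Its log2 fold change was 0.07 (95% confidence interval -0.04 to 0.18, adjusted p = 0.449) in OCsEo and 0.11 (interval -0.00 to 0.22, adjusted p = 0.157) in OCsEoS by edgeR, so that a change of 0.5 in either direction lay outside both intervals.

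Sirpa (ENSMUSG00000037902, chr2:129592835-129632228, plus strand) was at 509, 533, 536 and 619 CPM in OCsCtr and at 551, 590, 507 and 575 CPM in OCsEo. In OCsEoS it was at 466, 479, 388 and 366 CPM. The supernatant libraries lay below every library of both other groups, whereas OCsCtr and OCsEo overlapped. The log2 fold change against OCsCtr was 0.02 (SE 0.08, adjusted p = 0.926) in OCsEo and -0.37 (SE 0.08, adjusted p = 0.00242) in OCsEoS by edgeR, the latter under the fold cut-off. Between the stimulated groups, OCsEoS against OCsEo, the difference was -0.39 (SE 0.08, adjusted p = 0.0321), also under the cut-off.

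Sirpa was the only 1 of the 8 genes with an adjusted p under 0.05 between OCsEoS and OCsEo, where 0.592% of all genes tested reached it, and the only 1 whose groups did not overlap, where 5.47% of all genes did not. No fusion gene was called between these groups by edgeR or by DESeq2, against 0.380% of all genes (52 genes), and Sirpa was the only 1 with an unadjusted p under 0.05. The adjusted p of the Sirpa difference depended on single libraries. Without each of the 12 in turn it ranged from 0.0142 to 0.130 and was above 0.05 in 5 cases, namely without OCsEo 1 (0.0573), OCsEo 2 (0.105), OCsEo 4 (0.103), OCsEoS 3 (0.130) and OCsEoS 4 (0.0962). The difference itself stayed between -0.45 and -0.32. Close relatives of Sirpa, Sirpb1a, Sirpb1b and Sirpb1c, held together 3.59% to 8.22% as many counts as Sirpa, and reads shared with them could not be examined.

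With Cd47 steady and Sirpa lower, the ligand stood higher relative to the receptor in OCsEoS. The log2 ratio of Cd47 to Sirpa counts was -1.54 ± 0.09 in OCsCtr, -1.49 ± 0.14 in OCsEo and -1.05 ± 0.22 in OCsEoS (SD, n = 4), and the OCsEoS libraries, from -1.30 to -0.85, were above the highest of the other groups at -1.32. Among the partners, Ptpn6, which encodes SHP-1, had log2 fold changes of -0.03 and -0.10 in OCsEo and OCsEoS and Ptpn11, which encodes SHP-2, of -0.13 and -0.17. Neither passed the test, nor did Thbs1, which encodes the CD47 ligand thrombospondin-1, at -0.27 and -0.24.

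**Figure D2:**
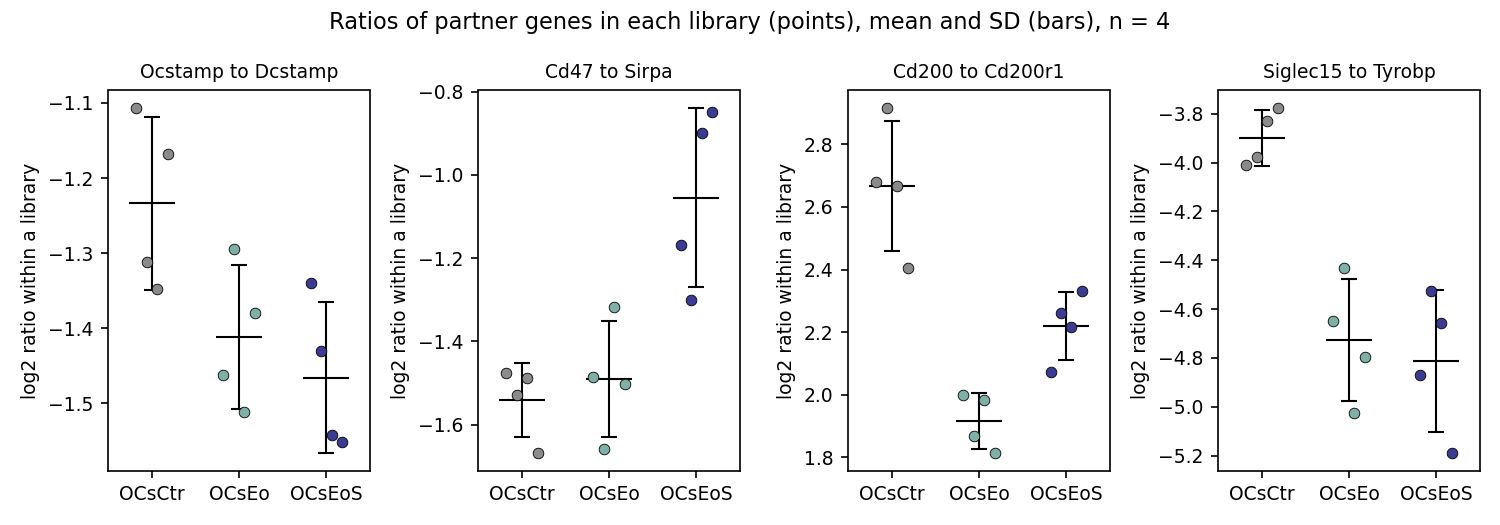
Log2 ratio of the counts of 4 gene pairs within each library (y axis, no scaling between genes, not starting at 0) in OCsCtr, OCsEo and OCsEoS (x axis). Points are libraries in replicate order and bars the mean and SD. Cd47 to Sirpa is highest in OCsEoS, Cd200 to Cd200r1 and Siglec15 to Tyrobp are lower in both stimulated groups than in every control, and Ocstamp to Dcstamp overlaps.

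Cd200 encodes a membrane glycoprotein that macrophages gain when they fuse, and its receptor CD200R restrains myeloid cells. Cd200 (ENSMUSG00000022661, chr16:45382135-45409053, minus strand) was at 160, 175, 198 and 154 CPM in OCsCtr, at 116, 102, 115 and 108 CPM in OCsEo and at 109, 134, 126 and 110 CPM in OCsEoS. No stimulated library reached the lowest control. The log2 fold change was -0.64 (SE 0.08, adjusted p = 3.53e-05) in OCsEo and -0.52 (SE 0.08, adjusted p = 1.71e-04) in OCsEoS by edgeR. In OCsEoS the size was under the cut-off without OCsCtr 3 (-0.44), OCsEoS 1 (-0.47) or OCsEoS 4 (-0.47). Between OCsEoS and OCsEo it was 0.12 (95% confidence interval -0.05 to 0.30, adjusted p = 0.632).

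The receptor gene Cd200r1 had log2 fold changes of 0.11 in OCsEo and -0.08 in OCsEoS, which did not pass the test. The log2 ratio of Cd200 to Cd200r1 counts was 2.67 ± 0.21 in OCsCtr, 1.92 ± 0.09 in OCsEo and 2.22 ± 0.11 in OCsEoS (SD, n = 4), with the lowest control at 2.41 and the highest stimulated library at 2.33. Endothelial and stromal cells also carry CD200. The 10 markers of those cells summed to 19.2 to 64.5 CPM in OCsCtr, 17.1 to 47.9 in OCsEo and 20.2 to 42.7 in OCsEoS, none was called by edgeR or DESeq2 or had an unadjusted p under 0.05 in either comparison (5 of the 10 were tested), and Bglap and Tek were at 0 in all OCsCtr libraries. Their part in the level of Cd200 was not tested.

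Siglec15 (ENSMUSG00000091055, chromosome 18, minus strand, 6 exons) had the largest log2 fold changes of the 8 genes against OCsCtr. It was at 47.5, 57.1, 58.7 and 59.9 CPM in OCsCtr, at 32.6, 40.4, 29.1 and 33.8 CPM in OCsEo and at 27.1, 36.7, 31.9 and 22.1 CPM in OCsEoS. Every stimulated library was below every control. By edgeR the log2 fold change was -0.72 (SE 0.13, adjusted p = 7.37e-04) in OCsEo and -0.92 (SE 0.13, adjusted p = 5.38e-05) in OCsEoS, and no single library ended either call. The difference between OCsEoS and OCsEo was -0.21 (95% confidence interval -0.48 to 0.07, adjusted p = 0.594). Siglec15 also had the widest spread of the 8 genes, a coefficient of variation of 21.3% in OCsEoS.

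Tyrobp, which encodes DAP12, the signalling adaptor of Siglec-15, differed from OCsCtr by 0.11 on the log2 scale in OCsEo (edgeR, adjusted p = 0.234) and by -0.03 in OCsEoS (adjusted p = 0.771). The log2 ratio of Siglec15 to Tyrobp counts was -3.90 ± 0.11 in OCsCtr, -4.73 ± 0.25 in OCsEo and -4.81 ± 0.29 in OCsEoS (SD, n = 4). All 8 stimulated libraries were at -4.43 or below, and all controls at -4.01 or above.

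Adam8 was the 1 fusion gene called higher. ADAM8 is a membrane metalloprotease with a disintegrin domain that binds integrin α9β1 and is found in osteoclast precursors as well as in granulocytes. Adam8 (ENSMUSG00000025473, chr7:139978932-139992562, minus strand) was at 231, 167, 195 and 193 CPM in OCsCtr, at 340, 286, 271 and 292 CPM in OCsEo and at 312, 261, 278 and 322 CPM in OCsEoS. All 8 stimulated libraries were above the highest control. The log2 fold change was 0.60 (SE 0.09, adjusted p = 1.40e-04) in OCsEo and 0.58 (SE 0.09, adjusted p = 1.32e-04) in OCsEoS by edgeR, and it stayed called without each of the 12 libraries in turn. Between the stimulated groups it was -0.02 (95% confidence interval -0.21 to 0.17). Gm16201, a processed transcript on the other strand, and Mir7062 overlap Adam8, and how reads were assigned by strand is not given in the sources used here.

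Because granulocytes carry ADAM8, their markers stand beside this result. The 11 neutrophil markers summed to 337 to 479 CPM in OCsCtr, 484 to 666 in OCsEo and 379 to 451 in OCsEoS. In OCsEo 3 of the 11 were called higher, against 3.27% of all genes. In OCsEoS 0 of 11 were called by edgeR or DESeq2, with 3 at an unadjusted p under 0.05. The 11 eosinophil markers summed to 57.1 to 73.7 CPM in OCsCtr, 61.6 to 86.3 in OCsEo and 49.3 to 55.5 in OCsEoS, most of it Ccr3, at 45.7 to 65.6 CPM in every library. This sum hides a difference among the markers. In OCsEo 3 of the 6 tested were called higher by edgeR, each from a low level, against 3.27% of all genes. The 3 others tested did not rise there. Ccr3 had a log2 fold change of -0.29 (edgeR, adjusted p = 0.0164), Prg2 of -0.01 and Ear2 of -0.20. Alox15 was at 0.104 to 0.653 CPM in OCsCtr, rose to 6.24 to 16.7 in OCsEo and was at 0.178 to 1.13 in OCsEoS. Siglecf, the gene of an eosinophil surface receptor, was at 0.218 to 0.653 CPM in OCsCtr, rose to 2.53 to 3.28 in OCsEo and was at 0.237 to 1.30 in OCsEoS. The third marker called higher was Il5, at 0.0297 CPM or less in OCsCtr and 1.52 to 4.18 in OCsEo. These 3 were not called in OCsEoS by edgeR (adjusted p = 0.129 to 0.449), where Prg2 was called lower at -2.74. Epx, the gene of eosinophil peroxidase, and Prg3, Ear1, Ear6 and Il5 were at 0 in all OCsEoS libraries. Epx, Prg3, Ear1 and Ear6 were too low in every group to be tested, at 0.771 CPM or less in every library. Epx was at 0 to 0.177 CPM in OCsCtr and 0 to 0.479 in OCsEo. The part of granulocyte RNA in the level of Adam8 was not tested in either stimulated group.

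Cd44, the gene of the hyaluronan and osteopontin receptor, did not pass the test in either group. Cd44 (ENSMUSG00000005087, chr2:102811141-102901665, minus strand) was at 478 ± 23.8 CPM in OCsCtr beside 519 ± 34.6 in OCsEo and 482 ± 27.3 in OCsEoS (SD, n = 4). The log2 fold change was 0.12 (95% confidence interval -0.01 to 0.24, adjusted p = 0.191) and 0.01 (interval -0.11 to 0.14, adjusted p = 0.911) by edgeR, which leaves 0.5 outside both intervals. Spp1, which encodes its ligand osteopontin, was called higher in OCsEo at 0.67 (SE 0.07, adjusted p = 1.16e-06) and was at 0.36 (SE 0.07, adjusted p = 4.93e-04) in OCsEoS, under the cut-off, and the difference of OCsEoS from OCsEo was -0.31 (adjusted p = 0.0309). Mmp14, the gene of the membrane metalloprotease MT1-MMP, which sheds CD44, was called lower with either stimulus, at -0.55 and -0.63.

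**Figure D3:**
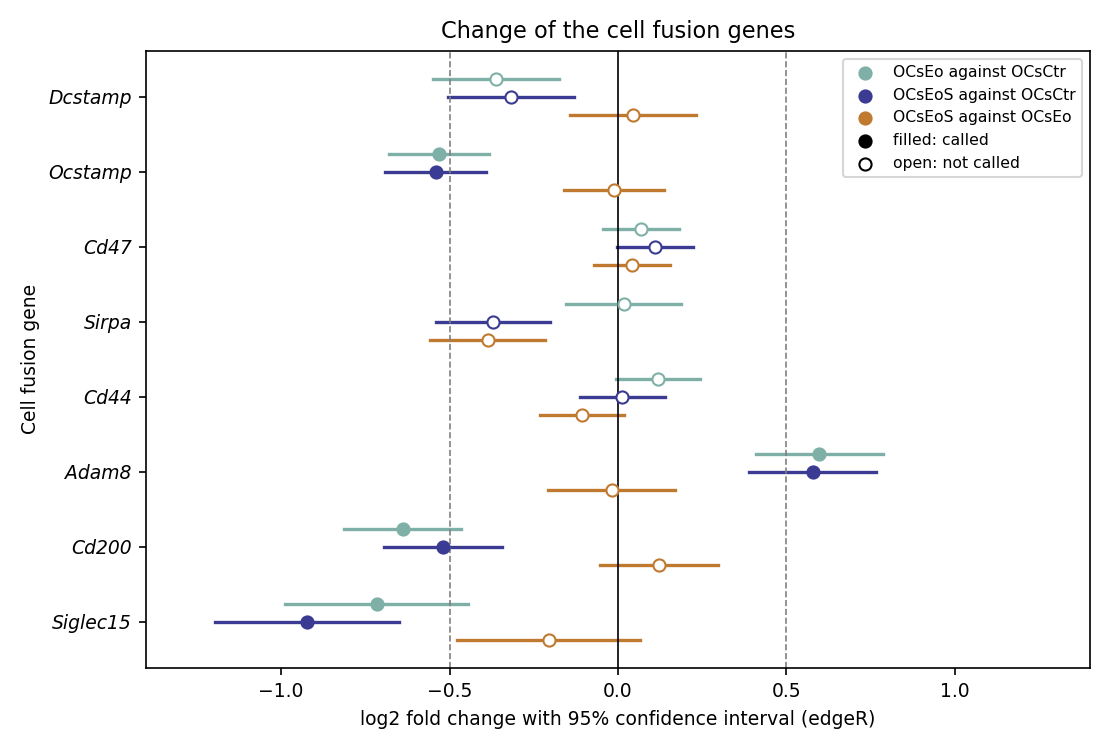
Log2 fold change of each fusion gene (x axis) with its 95% confidence interval from edgeR, for OCsEo against OCsCtr, OCsEoS against OCsCtr and OCsEoS against OCsEo. Filled points were called, open points were not, and dashed lines mark the cut-off of 0.5 in size. Sirpa is the gene for which the OCsEoS against OCsEo interval, at -0.56 to -0.22, is farthest from 0, and the intervals of Cd47 and Cd44 lie inside the cut-off in all 3 comparisons.

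The 250 bases before the start of Cd200, Adam8 and Cd44 are shown because these genes moved down, up and not past the test, and because RANKL acts on fusion genes through NFATc1 and AP-1. They are RefSeq promoter sequences of GRCm38.p6, written 5′ to 3′ on the strand of the gene, and 4 of the 8 fusion genes, Cd47 among them, were matched in that table. Capitals mark the NFAT core GGAAA on either strand, so that its reverse complement also counts.
Cd200 (chr16:45409054-45409303, minus strand): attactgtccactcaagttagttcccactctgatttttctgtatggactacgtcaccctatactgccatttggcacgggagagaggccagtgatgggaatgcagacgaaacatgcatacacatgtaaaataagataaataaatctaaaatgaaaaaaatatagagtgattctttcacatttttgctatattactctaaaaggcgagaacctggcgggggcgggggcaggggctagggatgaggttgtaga
Adam8 (chr7:139992563-139992812, minus strand): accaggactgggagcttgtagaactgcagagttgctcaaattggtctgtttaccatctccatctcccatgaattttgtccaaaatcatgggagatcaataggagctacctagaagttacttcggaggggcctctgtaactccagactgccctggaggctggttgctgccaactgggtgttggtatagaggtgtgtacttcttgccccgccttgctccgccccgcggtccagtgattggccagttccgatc
Cd44 (chr2:102901666-102901915, minus strand): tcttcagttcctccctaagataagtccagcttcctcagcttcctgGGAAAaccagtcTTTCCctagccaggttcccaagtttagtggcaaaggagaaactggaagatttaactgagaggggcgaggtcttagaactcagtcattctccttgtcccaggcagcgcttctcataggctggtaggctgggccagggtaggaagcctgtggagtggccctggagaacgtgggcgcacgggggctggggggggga
The NFAT core was found 2 times before Cd44 and not before Cd200 or Adam8. Before Cd47, which like Cd44 did not pass the test and is not shown, it was not found either. Of the 32851 promoters of the table, 55.6% hold this core in a window of this length. The AP-1 letters TGANTCA are found in 6.75% of promoters. The E-box CACGTG, the letters bound by MITF, is found in 6.02%. Both were searched on both strands and are in none of the 3 windows shown. These motifs do not overlap each other in the sequences shown. A match here describes letters and not a bound site.

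The remaining genes of the pathway were taken from lists of binding partners, other fusion genes and transcription factors, 86 genes in all, of which 83 were tested. In OCsEo 7 were called higher and 14 lower, against 3.27% and 2.61% of all genes tested. In OCsEoS 7 were called higher and 19 lower, against 3.63% and 4.11%. Between OCsEoS and OCsEo none was called by edgeR or DESeq2, against 0.380% of all genes by edgeR. By edgeR 15 had an unadjusted p under 0.05 there. An adjusted p under 0.05 at any fold was reached there by 3, namely Spp1, Cd63 (-0.28) and Anxa5 (-0.29), and by 0.592% of all genes. Several of the genes named below, as well as Ocstamp and Siglec15, were drawn in the study's heat maps, which were made from these same libraries, so that their direction is not independent evidence.

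Among the 21 tested partners and adaptors 1 was called higher and 1 lower in each group. The shares over all genes were 3.27% higher and 2.61% lower in OCsEo, and 3.63% and 4.11% in OCsEoS. Dok2, an adaptor that works downstream of CD200R, was the higher one in OCsEoS at 0.59 (SE 0.07, adjusted p = 1.13e-05) and was at 0.45 in OCsEo, under the cut-off. The difference between these groups was 0.14 (adjusted p = 0.475). The median log2 fold change of the partners was -0.08 in OCsEo and -0.13 in OCsEoS.

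Of the 36 other fusion genes tested, chosen with earlier results of these data known, the calls are given beside those over all genes. In OCsEo 5 were called higher and 10 lower, in OCsEoS 5 higher and 15 lower, and 14 were called in both. Over all genes 3.27% were called higher and 2.61% lower in OCsEo, and 3.63% and 4.11% in OCsEoS. The median of the 36 was -0.30 and -0.28, beside -0.01 over all genes in each. Atp6v0d2, a subunit of the vacuolar proton pump that is needed for fusion, was at 1523 to 1755 CPM in OCsCtr, 1020 to 1178 in OCsEo and 941 to 1310 in OCsEoS, without overlap, and fell by 0.57 on the log2 scale in each. Itgb3, the β3 chain of the vitronectin receptor, had -0.99 in OCsEo and -0.91 in OCsEoS. Other genes called lower in both were Mmp9 (-0.77 and -1.10), which encodes a gelatinase, Tspan7 (-0.56 and -1.02), which encodes a tetraspanin of the podosome belt, and Src (-0.55 and -0.66), the tyrosine kinase of the ruffled border.

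Also called lower in both were Snx10, a sorting nexin gene, at -0.68 and -0.70, the MSP receptor gene Mst1r at -0.66 and -0.56, the podosome scaffold gene Sh3pxd2a at -0.64 and -0.52, the Rac activator gene Dock5 at -0.55 and -0.60, and Pik3cb at -0.52 and -0.59. Called in OCsEoS but not in OCsEo were Tspan10 (-1.44), Itgav (-0.68), Rac2 (-0.60), Bcar1 (-0.58) and Ptpn12 (-0.52), with values from -0.61 to -0.33 in OCsEo. The adjusted p of the difference between the groups was 0.0756 for Rac2 and 0.386 to 0.878 for the other 4, so that none was shown to differ.

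Genes called higher in both groups were Cd36 (1.54 and 1.66), a scavenger receptor gene also used in macrophage fusion, Ccl2 (1.12 and 1.34), a chemokine gene, Trem2 (1.02 and 0.78), another receptor that signals through DAP12, and Tspan13 (0.84 and 0.54). Cd36 was at 59.0 to 60.0 CPM in OCsCtr, 163 to 190 in OCsEo and 166 to 208 in OCsEoS. Cd81, a tetraspanin gene, was called in OCsEo at 0.57 and was at 0.44 in OCsEoS, and the connexin gene Gja1 was called in OCsEoS at 0.52 and was at 0.16 in OCsEo. Neither differed between the groups by the test (adjusted p = 0.635 and 0.362). The tetraspanin gene Cd9, another regulator of fusion, had -0.05 and -0.03 and did not pass the test.

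**Figure D4:**
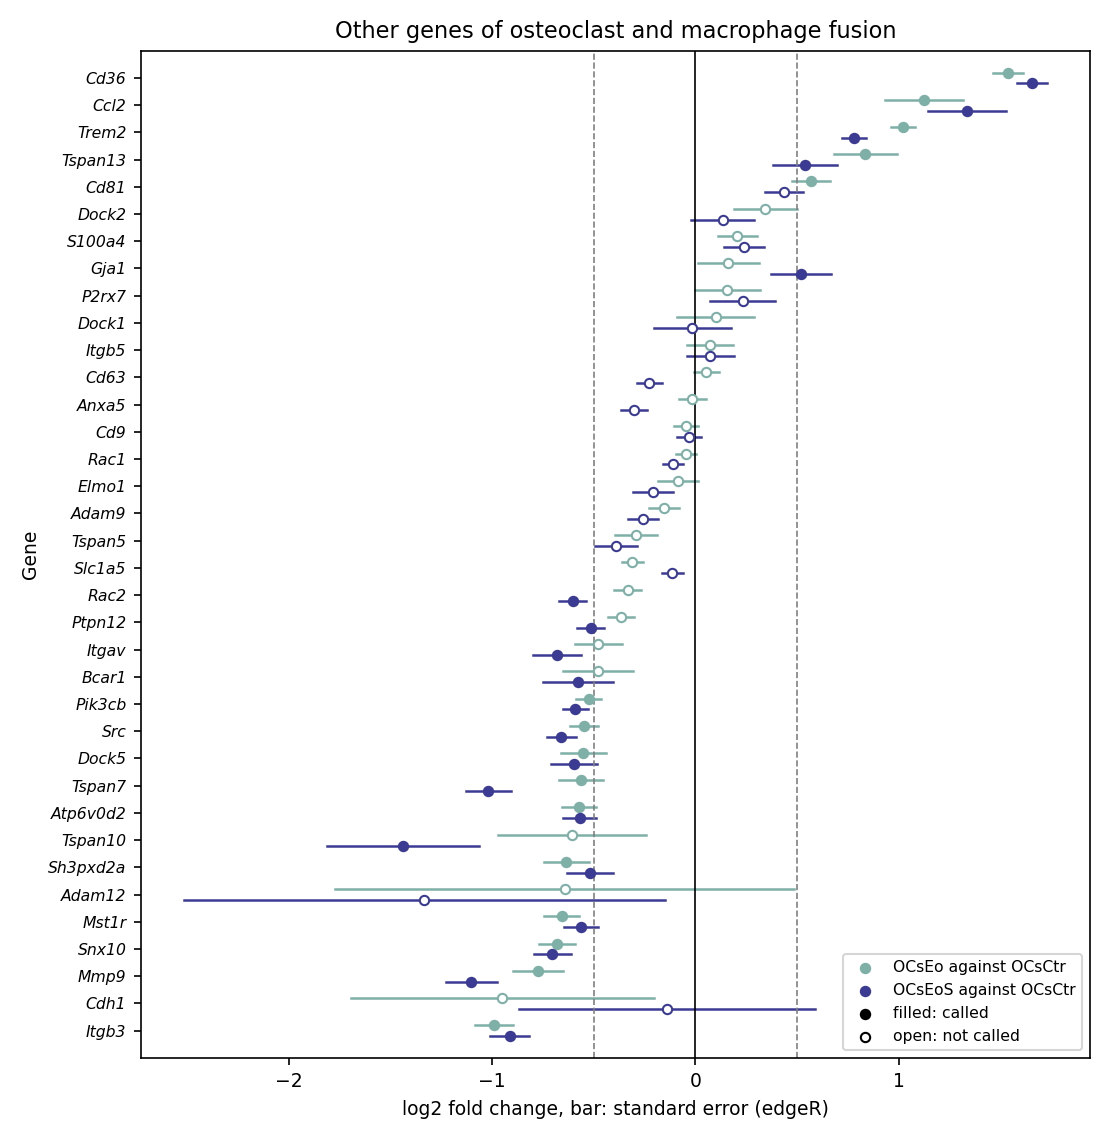
Log2 fold change (x axis, bars are the standard error from edgeR) of the 36 other fusion genes tested (y axis, ordered by OCsEo against OCsCtr) in OCsEo and OCsEoS against OCsCtr. Filled points were called, open points were not, and dashed lines mark 0.5 in size. Cd36 is at the upper end with 1.54 and 1.66 and Itgb3 at the lower end with -0.99 and -0.91.

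Of the 26 transcription factors tested, 3 were called lower in each group, against 2.61% of all genes in OCsEo and 4.11% in OCsEoS. They were the same 3 in both, and both comparisons use the same OCsCtr libraries. These were Fosl2 (-0.52 and -0.54), an AP-1 subunit gene, Prdm1 (-0.51 and -0.55), which encodes the repressor Blimp1, and Ppargc1b (-0.63 and -0.57), a coactivator gene of mitochondrial biogenesis. Nfatc1, the master regulator that induces Dcstamp and Atp6v0d2, was at -0.42 (SE 0.08, adjusted p = 9.35e-04) in OCsEo and -0.37 (SE 0.08, adjusted p = 0.00174) in OCsEoS, past the test but under the fold cut-off, as Dcstamp was. The median of the 26 was -0.01 and -0.06.

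For each fusion gene, the 3 tested genes with the highest Pearson r of log2 CPM over the 12 libraries were listed. These r describe libraries that share cultures, stimulus and scaling, and carry no test. Nearest to Dcstamp were Scin (0.97), Plpp1 (0.97) and Atp6v1c1 (0.96), and nearest to Ocstamp were Tcirg1 (0.99), a subunit gene of the osteoclast proton pump, Slc37a2 (0.99) and Fkbp9 (0.98). After group means were taken off, r was 0.96 for Scin with Dcstamp and 0.95 for Tcirg1 with Ocstamp. Nearest to Sirpa were Ctsa (0.98), Osbpl8 (0.96) and Tgfb1 (0.95). Their log2 differences of OCsEoS from OCsEo were -0.32, -0.33 and -0.26 (edgeR, adjusted p = 0.0261, 0.0861 and 0.116). These genes were picked by likeness to Sirpa in the same libraries, so that their differences are not independent evidence.

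Nearest to Adam8 were Mcm3 (0.98), a gene of the replicative helicase, Tacc3 (0.97), a gene of the mitotic spindle, and Tubb5 (0.97). Nearest to Cd200 were Slc18a1 (0.98), Arf3 (0.97) and Tmem65 (0.97), and to Siglec15 Spred1, Gna13 and Arsb (0.98 each). The highest r were lower for Cd47 and Cd44, with 0.94 for Tlr2 and Ms4a6d and 0.93 for Smpdl3a beside Cd47, and 0.91 for Eif4g2, 0.90 for Pcgf6 and 0.88 for Ado beside Cd44.

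Among the fusion genes themselves, Adam8 ran against Ocstamp, with r of -0.95 over the 12 libraries and -0.74 after group means were taken off. Dcstamp and Cd200 had 0.89 and 0.78. Sirpa and Siglec15 had 0.65 and 0.68, and Cd44 and Adam8 0.59 and 0.76, so that for these pairs libraries of 1 group also varied together.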

How the data were processed

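Bulk RNA-seq of 12 libraries, 4 each of OCsCtr, OCsEo and OCsEoS, was used. The authors cleaned paired-end reads (fastp is named in the submitters' processing notes), aligned them to GRCm38/mm10 with HISAT2 2.0.5, obtained the reads of each gene with featureCounts and deposited raw counts, which were used as they are. The annotation release and the strand setting are not given in the sources used here, so coordinates and overlaps were taken from GENCODE vM21, which held 47224 (99.1%) of the gene IDs.

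Counts were filtered with filterByExpr (minimum count 10, 13681 genes left), scaled by TMM (0.968 to 1.03), fitted for all 12 libraries and 3 groups, and compared with edgeR 4.0.16 (quasi-likelihood F-test, R 4.3.3). Adjusted p are Benjamini-Hochberg values over all genes tested, and standard errors and intervals come from the fit. Ratios used log2 CPM with a prior count of 2. Replicates of a group differed by more than counting noise (chi-square per degree of freedom 10.1 to 36.1 over 18 pairs).

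The members and lists were chosen with earlier results of these data known. Genes named are the members, list genes that were called, whose call differed or that pair with a member, and for each member the 3 genes of highest r. Cd9, Nfatc1 and the other list genes given with values that were not called were added for their role. Alternatives were DESeq2 1.42.0, other scalings, filters, cut-offs and fits, a replicate block, and each library left out. The method was tested on simulated data. Protein sequences were not used here. The result of 1 listed gene is not reported here.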

Additional observations from a re-analysis of the deposited data

Results flagged for a closer look

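The level of Ocstamp in OCsEo was flagged because 1 library stood apart from the other 3. OCsEo 1 was at 318 CPM and the others at 373 to 379 CPM, so that the gap to the nearest library took up 0.896 of the whole range, above Dixon's 95% critical value for 4 libraries. Groups of 4 libraries pass this limit by chance about 1 time in 20, and 36 groups were examined. Without OCsEo 1 the log2 fold change of Ocstamp in OCsEo was -0.47 instead of -0.53, with an adjusted p of 2.66e-04 by edgeR, so that it was no longer past the fold cut-off.

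The change of Sirpa was flagged because it differed between both stimuli by the test of the difference itself. OCsEoS less OCsEo was -0.39 on the log2 scale (adjusted p = 0.0321, edgeR), lower in 4 of 4 OCsEoS libraries than in all 4 of OCsEo. OCsEoS 3 and OCsEoS 4, at 388 and 366 CPM, were lower than OCsEoS 1 and OCsEoS 2, at 466 and 479 CPM, and leaving out either of the lower libraries gave an adjusted p of 0.130 or 0.0962.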

How the results depend on the processing

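The 4 calls among the fusion genes in each stimulated group were found by DESeq2 on 12 libraries and on 2 groups, with other scalings and filters, with counts thinned to the smallest library, with trends by gene length removed and with eosinophil-associated genes left out, which leaves the counts of the fusion genes as they are. They depend on the fold cut-off. With a cut-off of 1, or when tested against 0.5 instead of 0, 0 fusion genes were called in OCsEo and 0 in OCsEoS, and with no cut-off 1 was called between OCsEoS and OCsEo. For all genes, no cut-off, a cut-off of 1 and the test against 0.5 gave 2382, 136 and 50 in OCsEo (804 as reported), 3151, 160 and 55 in OCsEoS (1058), and 81, 21 and 3 in OCsEoS against OCsEo (52), where no filter on low counts gave 100. For the pathway lists they gave 33, 3 and 3 in OCsEo (21) and 44, 5 and 6 in OCsEoS (26). Leaving out 1 library at a time, 3 to 4 fusion genes were called in OCsEo and 2 to 4 in OCsEoS (2 without OCsCtr 3 or OCsEoS 4), and 17 to 62 of all genes in OCsEoS against OCsEo, the fewest without OCsEoS 3 (27 without OCsEo 2, 34 without OCsEo 3 or OCsEoS 4).

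Of 624 log2 fold changes of fusion genes under alternatives, 583 kept their direction and their side of the threshold and 14 turned their sign. All 14 were uncalled values near 0 with a library left out. These ranged from -0.0198 to 0.0782 for Sirpa in OCsEo, -0.0171 to 0.0432 for Cd44 in OCsEoS and, in OCsEoS against OCsEo, -0.0100 to 0.104 for Dcstamp, -0.0781 to 0.0374 for Ocstamp and -0.0656 to 0.0417 for Adam8. The log2 ratios within libraries moved by less than 1 SD in 60 of 60 cases, which is no check of the ratios. Leaving out 1 of 4 libraries cannot move their mean by 1 SD. The other cases used raw counts, which hardly change a ratio when every count is 719 or more.

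Replicate numbers are shared between groups, and whether they pair libraries is not settled. Deviations of same-numbered libraries from their group means had r from -0.04 to 0.09 over 12 pairs, never over the 0.1 asked of a pair, yet 9 of the 12 were the highest among the 4 numbers of the other group, which is a hint of shared deviations too weak to use. The numbers were not taken as pairs. With a replicate block, 4 fusion genes were called in OCsEo, 4 in OCsEoS and 0 between them, and 854, 1108 and 67 of all genes. Library size limits none of the fusion genes, since the lowest count was 759.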
